A study of Arabidopsis thaliana with 12 samples.

Results

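The transcripts described here are those of dark-grown *pifq* seedlings with and without lincomycin, an antibiotic that blocks protein synthesis on plastid ribosomes. They come from 6 of the 12 libraries of the study, chosen by their labels: 3 libraries of *pifq* grown in the dark without the drug (*pifq* dark) and 3 of *pifq* grown in the dark on medium with 0.5 mM lincomycin (*pifq* dark linc). The *pifq* mutant has the genotype pif1pif3pif4pif5 in the Columbia background. It carries mutations in PIF1, PIF3, PIF4 and PIF5 in both groups, and lincomycin is the only labelled difference between them. All plants were whole etiolated *Arabidopsis thaliana* seedlings, 3 days old, kept in darkness after a short exposure of the imbibed seeds to white light. The other 6 libraries are the same pair of treatments in wild type (WT), and they are used below only to show where the *pifq* response differed.

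PIFs (phytochrome-interacting factors) are basic helix-loop-helix transcription factors that accumulate in darkness and keep the seedling etiolated. Without them, a seedling switches on many genes of chloroplast development although it sees no light. Plastids in turn report on their own state to the nucleus by retrograde signals, in which the plastid protein GUN1 takes part, and a block of plastid translation is known to lower the transcripts of nuclear genes for photosynthesis. The comparison of *pifq* dark linc with *pifq* dark asks which transcripts respond to that block when the PIFs are missing and there is no light.

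The targeted genes were looked at first. PIF1 had at most 0.518 CPM (the standard depth-scaled count, here on the library total) in the 6 *pifq* libraries against 15.2 to 18.1 in WT, and PIF5 at most 1.04 against 4.95 to 6.08. PIF3 had 0.971 to 2.26 CPM in *pifq* and 106 to 137 in WT. PIF4 had 8.03 to 17.5 CPM in *pifq* and 8.52 to 11.4 in WT. Reads were counted on the 3′ end of each transcript, so the PIF4 reads do not check that mutation. The 6 libraries held between 11495950 and 15454786 counts, in which 3 counts are worth 0.194 to 0.261 CPM. Each library was made from RNA of whole seedlings, so fewer cells of a type and less RNA per cell cannot be told apart.

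On the scale used for these tests (TMM, explained below), lincomycin changed the *pifq* transcriptome more often downwards than upwards. Of 13142 genes tested, 596 were SSTF repressed, which is 4.54%, and 183 were SSTF induced, which is 1.39%. SSTF genes changed 2-fold or more and had an adjusted p no higher than 0.01 in edgeR's quasi-likelihood test. The median log2 fold change was −1.53 over the SSTF-repressed genes and 1.2 over the SSTF-induced ones. More than 4-fold changes were found in 184 of the repressed and 13 of the induced genes. At an adjusted p of at most 0.05 without a limit on the fold (SS genes), 1778 genes were repressed (13.5%) and 1272 were induced (9.68%). In 21.0% of the genes tested all 3 *pifq* dark linc libraries lay below all 3 *pifq* dark libraries, and in 18.6% all 3 lay above. Every SSTF gene was among them. The count of SS-induced genes moved with single libraries: it was 837 without *pifq* dark replicate 1, 804 without *pifq* dark linc replicate 1 and 669 without *pifq* dark linc replicate 2. When the replicate number entered as a block, SS counts were 2863 repressed and 2633 induced, which include all 1778 and all 1272 genes of the unblocked fit.

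**Figure D1:**
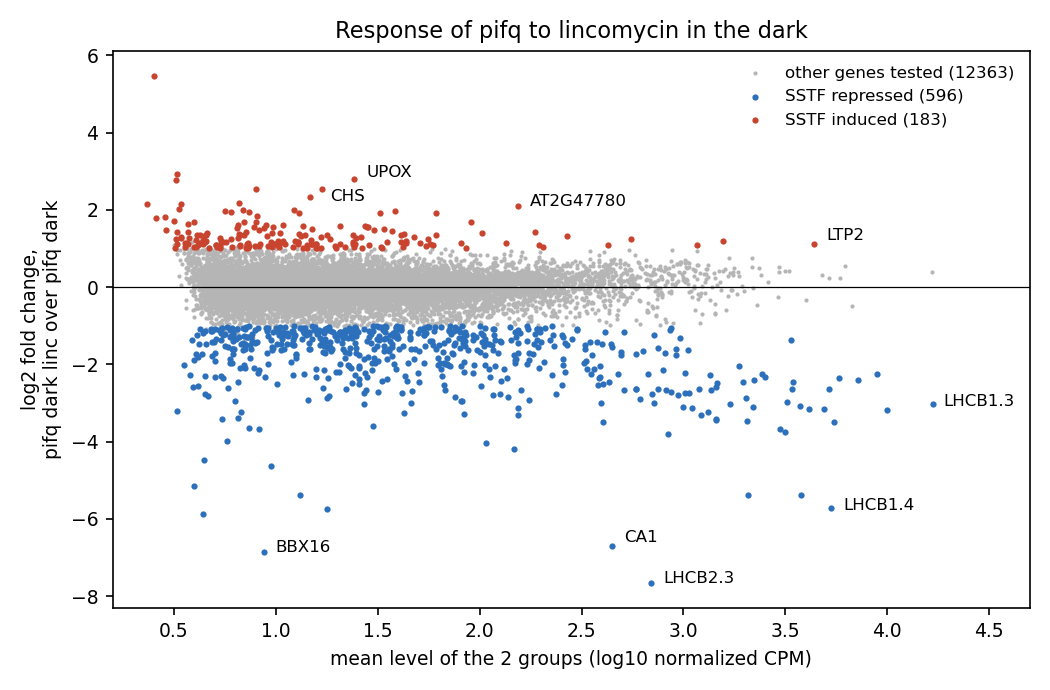
Each point is 1 of the 13142 genes tested, with its mean level in the 2 groups on the x axis (log10 of normalized CPM) and the log2 fold change of *pifq* dark linc over *pifq* dark on the y axis. The 596 SSTF-repressed genes reach down to −7.65 (LHCB2.3) and include the most abundant transcripts, whereas the 183 SSTF-induced genes mostly lie at low levels.

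The repressed genes made up a large part of the messenger RNA of untreated *pifq*. SSTF-repressed genes took 28.8%, 28.6% and 31.5% of all counts in the *pifq* dark libraries and 6.03%, 6.79% and 6.63% in the *pifq* dark linc libraries. SSTF-induced genes took 0.666%, 0.676% and 0.617% of the counts without the drug and 1.91%, 1.88% and 1.84% with it. The scale of all genes depends on how such a shift is treated. When values were scaled by library totals and not by TMM factors (the trimmed mean of M-values), the median over all genes of the log2 fold change went from near 0 to 0.32, and the share of repressed genes among SSTF genes fell from 76.5% to 40.6%. Counts of SSTF genes were then 385 repressed and 563 induced, so the balance depends on the scaling. The study itself also reported more induced than repressed SSTF genes for this comparison. On library totals 595 of the 596 SSTF-repressed genes were still SS repressed and all 183 SSTF-induced genes were still SS induced. Changes below are relative to the TMM scale.

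Genes of the light-harvesting antenna, the chlorophyll-binding proteins that collect light for both photosystems, had the lowest median of all 38 gene lists. Of 21 members, 19 passed the filter on low counts, and all 19 were SSTF repressed, with a median log2 fold change of −3.16. LHCB2.3, a major antenna protein of photosystem II, had 1279, 1129 and 1738 normalized CPM in *pifq* dark and 5.35, 9.69 and 5.57 in *pifq* dark linc. It showed the steepest fall of all genes tested, 200.2-fold (log2 fold change −7.65 ± 0.29 SE, adjusted p 5.44e-09). The most abundant transcript of untreated *pifq*, LHCB1.3, had 30098, 38708 and 21132 normalized CPM without lincomycin and 3903, 4192 and 2866 with it, so its groups were far apart although the untreated libraries differed among themselves. LHCA4, an antenna protein of photosystem I, went from 18095 ± 1403 to 1981 ± 288 (SD, n = 3 libraries), and LHCA1 from 10081 ± 1763 to 899 ± 109.9. The smallest fall in the antenna was that of LHCA6, from 108 ± 5.22 to 30.6 ± 0.364 normalized CPM.

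Reads of the LHCB1 genes are hard to assign, because their 3′ ends resemble each other: that of LHCB1.2 resembles all 4 others, those of LHCB1.3, LHCB1.4 and LHCB1.5 also resemble one another, and that of LHCB1.1 resembles LHCB1.2 alone. By the deposited counts, LHCB1.4 fell from 10409 ± 1255 to 197 ± 33.0 normalized CPM, and LHCB1.1 and LHCB1.2 fell by 5.37 and 5.38 on the log2 scale. LHCB1.5 fell from 14670.4 ± 1094 to 3072 ± 392, a log2 fold change of −2.26. The unequal falls within LHCB1 are therefore uncertain, while each of its members was repressed.

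Upstream sequences of genes that moved together were searched for 4 motifs on either strand, in the 300 bases before each annotated start: CCAATC, linked to the GLK transcription factors, CACGTG (the G-box) and CACATG (the PBE-box), both known to bind PIFs, and GATAAG (the I-box of light-regulated genes). CCAATC was found in 10 of the 21 antenna promoters (47.6%), in 16.7% of the SSTF-repressed genes with a promoter sequence, in 14.8% of the SSTF-induced ones and in 12.2% of all 27443 promoters. Other repressed lists were nearer to that share, with 4 of 25 promoters of photosystem subunits, 26.7% for electron transport, 12.1% for plastid ribosomal proteins, 11.5% for the Calvin cycle and 9.68% for tetrapyrroles. CACGTG was found in 12.9%, 6.82% and 7.09% of the same 3 sets, CACATG in 12.9%, 15.9% and 13.1%, and GATAAG in 20.7%, 11.4% and 14.5%. These shares describe letters and not bound sites. Promoters of 3 repressed genes are shown because they hold both CCAATC and CACGTG. They were picked after the search, and other strongly repressed genes, among them LHCB1.1, LHCB1.2, LHCB1.4, BBX16, AT5G48490 and PSBO2, hold none of the 4 motifs in their windows. The sequences come from RefSeq, assembly TAIR10.1, 5′ to 3′ along the gene's strand, with each match to the 4 motifs in capitals (a match on the opposite strand reads GATTGG or CATGTG). They are LHCB2.3 (chr3:10255606-10255905, plus strand), LHCA4 (chr3:17495034-17495333, minus strand) and BCH2 (chr5:21337127-21337426, minus strand), a hydroxylase of carotenoid synthesis described further on.
LHCB2.3: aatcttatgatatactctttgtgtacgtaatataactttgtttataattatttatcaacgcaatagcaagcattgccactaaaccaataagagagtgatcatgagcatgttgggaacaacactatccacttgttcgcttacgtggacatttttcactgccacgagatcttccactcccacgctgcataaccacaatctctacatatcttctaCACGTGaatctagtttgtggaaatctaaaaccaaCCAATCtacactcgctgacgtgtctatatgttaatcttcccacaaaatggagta
LHCA4: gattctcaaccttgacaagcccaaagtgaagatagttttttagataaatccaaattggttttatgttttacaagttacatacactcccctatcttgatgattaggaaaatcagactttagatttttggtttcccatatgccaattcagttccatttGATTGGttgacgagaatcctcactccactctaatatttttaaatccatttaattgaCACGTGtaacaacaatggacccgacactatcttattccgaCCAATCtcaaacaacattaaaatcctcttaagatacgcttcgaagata
BCH2: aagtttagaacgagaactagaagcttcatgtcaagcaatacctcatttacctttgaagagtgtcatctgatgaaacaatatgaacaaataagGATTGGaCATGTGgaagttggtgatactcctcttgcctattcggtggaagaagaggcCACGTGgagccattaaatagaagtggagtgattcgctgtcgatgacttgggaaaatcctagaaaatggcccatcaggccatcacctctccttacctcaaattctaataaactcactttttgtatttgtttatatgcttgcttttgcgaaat
CCAATC is present on both strands in LHCA4, and BCH2 also holds CACATG.

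The reaction centres that the antenna feeds responded as uniformly. All 24 tested nuclear genes for subunits of photosystems I and II were SSTF repressed, with log2 fold changes between −4.04 and −2.27. The steepest was PSBO2, which helps to hold the oxygen-evolving manganese cluster, with 194, 197 and 218 normalized CPM without lincomycin and 11.6, 12.9 and 12.6 with it. Its 3′ end resembles that of PSBO1. PSAG, the most abundant photosystem I subunit, went from 12108 ± 1739 to 2278 ± 571. All 15 genes of electron transport and the plastid ATP synthase were SSTF repressed (median −2.33), among them DRT112, a plastocyanin that carries electrons to photosystem I, which fell from 9662 ± 1655 to 1882 ± 174, and ATPD, the delta subunit of ATP synthase, which fell from 278 ± 16.2 to 31.8 ± 2.11. All 14 tested nuclear subunits of the plastid NDH complex, which runs cyclic electron flow, were SS repressed. Of the 14, 3 passed the filter only through the libraries without lincomycin, so they had to be higher there to be tested. NDHU was near the limit of detection with the drug, with 30.9, 32.7 and 41.7 normalized CPM without it and 0.845, 0.668 and 0.434 with it.

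**Figure D2:**
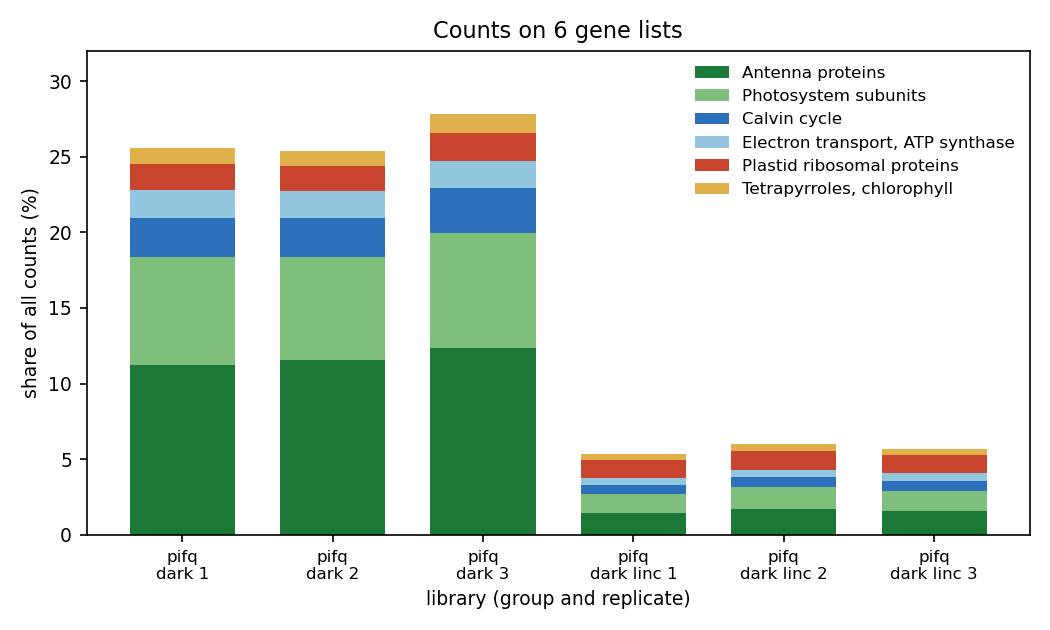
Stacked bars give the share of all counts (%) that fell on 6 gene lists in each of the 3 *pifq* dark and 3 *pifq* dark linc libraries. The 6 lists together took 25.6%, 25.4% and 27.8% of the counts without lincomycin and 5.35%, 5.99% and 5.69% with it, and the antenna proteins were the largest block in all 6 bars.

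Transcripts of carbon fixation enzymes were also lower with lincomycin. Of 24 tested Calvin cycle and carbonic anhydrase genes, 22 were SS repressed and none was SS induced, with a median of −2.31. CA1, a plastid carbonic anhydrase, had 848, 758 and 1053 normalized CPM in *pifq* dark and 8.02, 8.49 and 9.19 in *pifq* dark linc, a 103-fold fall (log2 fold change −6.69 ± 0.19 SE, adjusted p 1.26e-09). RBCS3B, a small subunit of Rubisco whose 3′ end resembles those of RBCS1A and RBCS2B, fell from 8861 ± 1186 to 993 ± 106, and RCA, the activase that keeps Rubisco open, fell from 2378 ± 448 to 254 ± 34.8. TKL1, a transketolase of the cycle, fell less, with a log2 fold change of −0.82. The members without a call were FBA3 (−0.34), an aldolase, and CP12-3 (0.03), of the family that binds phosphoribulokinase.

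Photorespiration, which recycles the product of Rubisco's reaction with oxygen across plastid, peroxisome and mitochondrion, showed 13 of 14 genes SS repressed (median −1.89). GGT1, a peroxisomal glutamate:glyoxylate aminotransferase, had 1088, 1062 and 1073 normalized CPM without lincomycin and 138, 162 and 135 with it. GS2, the plastid glutamine synthetase that refixes the released ammonium, fell from 2491 ± 212 to 444 ± 6.43. The last enzyme of the path, GLYK, had a log2 fold change of 0.13 and no call. The repressed members thus lie in 3 compartments and not in the plastid alone.

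Transcripts of pigment synthesis enzymes were mostly lower too. Of 31 tetrapyrrole genes, 25 were SS repressed, with a median of −1.44. CAO, which makes chlorophyll b, had the steepest fall, with 407, 367 and 471 normalized CPM without lincomycin and 60.3, 59.5 and 62.7 with it. HEMA1, the glutamyl-tRNA reductase at the entry of the pathway, fell from 653 ± 13.2 to 112 ± 8.92, and CRD1, part of the cyclase that forms the fifth ring of chlorophyll, from 3006 ± 113 to 733 ± 92.5. GUN4 and GUN5, a regulator and a subunit of magnesium chelatase, fell by 2.12 and 2.13 on the log2 scale. The 6 tested members without a call included both ferrochelatases of the haem branch, FC1 (0.22) and FC2 (−0.05), and HY2 (0.21), which makes the phytochrome chromophore.

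Of 18 tested genes of plastid isoprenoid and carotenoid synthesis, 14 were SS repressed (10 on library totals). Of the 14, 1 passed the filter only through the libraries without lincomycin. BCH2, a beta-carotene hydroxylase, had 24.7, 23.3 and 29.1 normalized CPM without lincomycin and 0.845, 0.468 and 0.507 with it (log2 fold change −5.39 ± 0.22 SE, adjusted p 1.27e-08). Its paralog BCH1 had a log2 fold change of −0.89. PSY, the phytoene synthase that opens the carotenoid branch, fell from 80.3 ± 7.83 to 12.3 ± 1.66, and DXS, the first enzyme of the plastid isoprenoid path, from 413 ± 65.5 to 103 ± 6.54. The remaining repressed members fell by less than DXS, which fell by 2.01 on the log2 scale.

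All 33 listed nuclear genes for proteins of the plastid ribosome, the machine that lincomycin blocks, were SS repressed, but by less than the photosynthetic genes. The list does not hold every such gene. Their log2 fold changes lay between −1.53 and −0.46 (median −0.91), and 9 of them were SSTF repressed. PRPL35 had 337, 280 and 417 normalized CPM without the drug and 109, 110 and 138 with it. PRPL29, the most abundant member, had 2015, 2225 and 1641 without it and 1311, 1492 and 1075 with it, a log2 fold change of −0.60 with an adjusted p of 0.0215. With fewer libraries this call was lost while the fold stayed near its size: −0.58 without *pifq* dark replicate 1 (adjusted p 0.0742), −0.50 without *pifq* dark replicate 2 (0.0757), −0.61 without *pifq* dark linc replicate 1 (0.0684) and −0.49 without *pifq* dark linc replicate 3 (0.0687). On library totals, 27 of the 33 were SS repressed.

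Transcripts of the plastid genome were also counted, as far as polyA selection retains them. Of 133 plastid loci, 22 passed the filter, of which 11 were SS repressed and 3 SS induced. The repressed loci included the tested subunits of the plastid ATP synthase, and its other plastid-encoded subunits were under the filter. The transcript annotated as its epsilon chain (ATCG00470) had 1666, 1373 and 1472 normalized CPM without lincomycin and 184, 324 and 178 with it, and that of its beta subunit (ATCG00480) went from 13.7 ± 7.68 to 1.08 ± 0.335. The transcript of a photosystem II reaction centre protein, M (ATCG00220), had 336, 436 and 73.7 without the drug and 29.4, 39.1 and 16.6 with it, so replicate 3 was low in both groups. The induced loci were those annotated as the alpha subunit of the plastid RNA polymerase (ATCG00740), a structural constituent of the ribosome (ATCG00800) and Ycf1 (ATCG01000). ATCG00740 rose from 59.8, 47.3 and 21.2 normalized CPM to 129, 175 and 112, with a log2 fold change of 1.70 ± 0.29 SE. The count of repressed plastid loci was 6 without *pifq* dark replicate 1 and 7 without *pifq* dark replicate 2, and with the replicate block 5 loci were SS induced. Of 145 mitochondrial loci, 3 passed the filter and none was called by edgeR (1 was SS induced with the replicate block), and none had an unadjusted p under 0.05.

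Genes for plastid transcription more often went the other way from photosynthesis. Of 18 tested, 10 were SS induced and 4 SS repressed, with a median log2 fold change of 0.65. Of the 10, 2 reached the minimum level of the filter only in the lincomycin libraries, so they had to be higher there to be tested. Of the 4 repressed, 1 passed only through the libraries without the drug. PTAC10, a protein of the plastid-encoded RNA polymerase complex, had 14.3, 13.4 and 13.4 normalized CPM without lincomycin and 56.7, 49.3 and 48.5 with it (log2 fold change 1.91 ± 0.12 SE, adjusted p 2.12e-07). The complex proteins FLN1 and HMR rose from 17.7 ± 2.89 to 49.8 ± 3.85 and from 34.4 ± 1.07 to 88.0 ± 8.11. SCA3, the phage-type RNA polymerase of the plastid, rose from 1.89 ± 0.742 to 6.07 ± 1.01. Among the repressed members were sigma factors, which direct the plastid-encoded polymerase to its promoters: SIG1 had 38.1, 37.6 and 45.9 normalized CPM without the drug and 8.66, 8.49 and 7.82 with it. PTAC7, the most abundant member, was SS repressed as well, from 143 ± 27.0 to 85.1 ± 9.17 (log2 fold change −0.75). The summed level of the list overlapped, with 555 to 712 normalized CPM without the drug and 634 to 684 with it. GUN1, which takes part in retrograde signalling, had 74.7 ± 13.4 normalized CPM without it and 60.6 ± 8.28 with it, in groups that overlap. Its log2 fold change was −0.30 (adjusted p 0.159, and 0.00832 with the replicate block).

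Plastid import, folding and proteolysis genes were split, with 7 of 25 SS repressed and 6 SS induced. Of the 7, 1 passed the filter only through the libraries without lincomycin. The repressed side held the thylakoid FtsH proteases, led by FTSH2, which helps to replace damaged photosystem II and fell from 147 ± 30.2 to 47.2 ± 1.01 normalized CPM. The induced side held HSP90.5, the plastid HSP90 chaperone, with 13.6, 16.6 and 15.0 normalized CPM without lincomycin and 37.9, 29.2 and 31.5 with it, and TIC110, of the inner-envelope import channel, with a log2 fold change of 0.58. CPN20, a plastid co-chaperonin, went from 669 ± 118 to 956 ± 183 and was at an adjusted p of 0.0501, or 8.01e-05 with the replicate block, 0.0347 without *pifq* dark replicate 2 and 0.032 without *pifq* dark linc replicate 3.

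**Figure D3:**
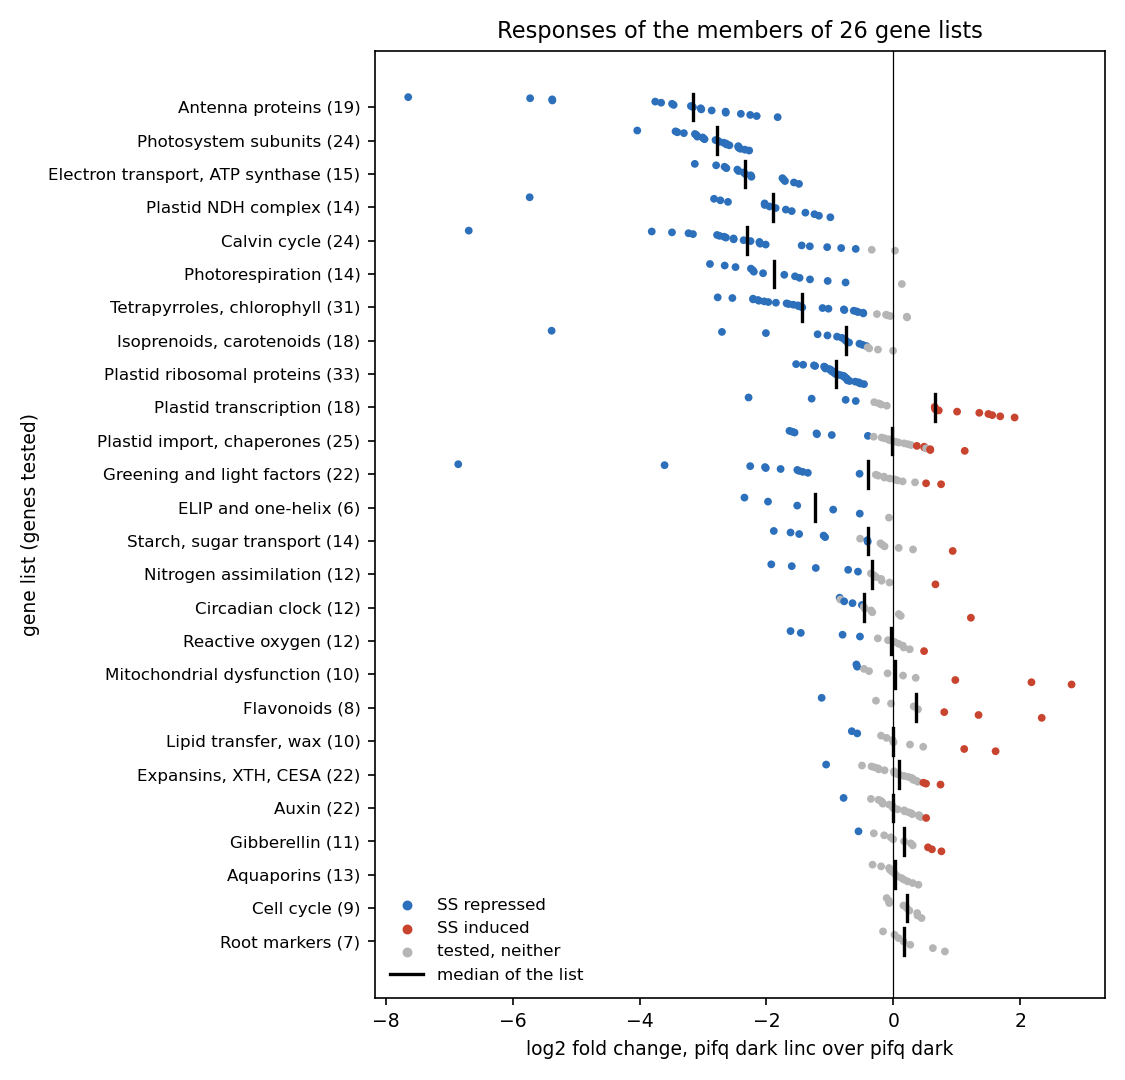
Each point is a tested member of 1 of 26 gene lists, placed by its log2 fold change of *pifq* dark linc over *pifq* dark, with bars at the list medians and the number of genes tested beside each name. The lists of photosynthesis lie wholly or almost wholly left of 0 (medians from −3.16 for antenna proteins to −1.89 for photorespiration), plastid transcription lies mostly to the right (median 0.65), and the growth and hormone lists straddle 0.

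Among transcription factors of greening and light signalling, 11 of 22 tested were SS repressed and 2 SS induced. Of the 11, 3 passed the filter only through the libraries without lincomycin, so they had to be higher there to be tested. GLK1 and GLK2, which activate genes of chloroplast development, fell. GLK1 had 16.3, 16.7 and 24.6 normalized CPM without lincomycin and 7.04, 6.15 and 9.41 with it (log2 fold change −1.35 ± 0.20 SE, adjusted p 0.000399), and GLK2 had 23.8, 20.4 and 36.1 without it and 9.43, 8.89 and 11.4 with it. Neither pair of groups overlapped. The GATA factor GNL, which promotes chlorophyll accumulation, fell from 5.65 ± 0.453 to 1.39 ± 0.575. Its relative GNC had a log2 fold change of 0.52 and an adjusted p of 0.026, which was between 0.0556 and 0.113 without *pifq* dark replicate 2 or 3 or without *pifq* dark linc replicate 1 or 2, each left out alone. The other SS-induced member, the B-box gene BBX18, rose from 3.25 ± 0.721 to 5.52 ± 0.238 normalized CPM, and its adjusted p of 0.0201 was 0.054 without *pifq* dark replicate 3, 0.0502 without *pifq* dark linc replicate 1 and 0.0549 without *pifq* dark linc replicate 2. BBX18 passed the filter only through the lincomycin libraries.

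B-box factors, zinc-finger proteins of light signalling, held the steepest falls of this list. BBX16 had 17.7, 15.8 and 18.2 normalized CPM without lincomycin and 0.211, 0.0668 and 0.145 with it. Only 6 counts remained over the 3 treated libraries, a ratio of 123 with a counting interval (95%) of 56.3 to 337. COL2 fell from 55.1 ± 9.01 to 4.52 ± 0.355 and BBX14 from 171 ± 38.8 to 42.0 ± 3.51. The most abundant B-box gene, BBX21, had 219, 236 and 218 without the drug and 255, 251 and 238 with it, a log2 fold change of 0.15 without a call. HYH, a bZIP factor, fell by 2.26 on the log2 scale, whereas its better-known relative HY5 had 9.42 ± 2.14 and 9.08 ± 1.07 normalized CPM and overlapping groups.

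The photoreceptor list was small, and its share of SS-repressed genes was 37.5% against 13.5% of all genes tested. Of 8 tested, 3 were SS repressed (1 without *pifq* dark linc replicate 2), all of them blue-light receptors: CRY1 (−0.99), CRY2 (−0.54) and ZTL (−0.40). PHYA, the phytochrome of dark-grown seedlings and the most abundant of them, had a log2 fold change of 0.06. Of 12 tested clock genes, 4 were SS repressed (7 with the replicate block). RVE1 and CCA1, morning-phased MYB factors, fell from 27.1 to 15.1 and from 101 to 58.8 normalized CPM, and PRR3 was the one SS-induced member, from 2.44 ± 0.177 to 5.71 ± 1.01. PRR3 passed the filter on low counts only with *pifq* dark linc replicates 2 and 3 both present.

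Transcripts of proteins that protect the thylakoid were lower as well. Of 6 tested ELIP-type and one-helix proteins, 5 were SS repressed, led by OHP1, which had 208, 191 and 284 normalized CPM without lincomycin and 36.7, 52.8 and 44.9 with it. Among 12 enzymes that remove reactive oxygen, 4 were SS repressed (2 without *pifq* dark linc replicate 2). CAT2, the catalase of photorespiring peroxisomes, fell from 176 ± 13.6 to 57.2 ± 5.17, and TAPX, the ascorbate peroxidase of the thylakoid, by 1.46 on the log2 scale. CAT3, the most abundant catalase here, had a log2 fold change of −0.08. DHAR1, a dehydroascorbate reductase with a near-identical neighbour, was SS induced (0.48).

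Among genes of nitrogen and sugar metabolism, single members fell strongly. NIA2, the major nitrate reductase, had 594, 541 and 445 normalized CPM without the drug and 150, 146 and 120 with it, and ASN1, an asparagine synthetase known to be induced by darkness, fell from 496 ± 23.2 to 164 ± 5.75. In all, 5 of 12 tested nitrogen genes were SS repressed (8 with the replicate block) and 1 was SS induced, the glutamine synthetase gene GLN1;3 (0.66). Of 14 starch and sugar transport genes, 7 were SS repressed, 1 of which passed the filter only through the libraries without lincomycin. TPT, the triose phosphate exporter of the plastid envelope, had 274, 286 and 262 normalized CPM without lincomycin and 85.2, 71.1 and 66.1 with it. SEX4, a glucan phosphatase, was the one SS-induced member (0.93), and its adjusted p of 0.022 rose to between 0.0581 and 0.0950 without *pifq* dark replicate 1 or 2 or *pifq* dark linc replicate 2 or 3, each left out alone. SEX4 passed the filter only through the lincomycin libraries. Carbon starvation markers were split, with 3 of 5 tested SS repressed and 1 SS induced. SEN1, a gene of dark and sugar starvation, fell from 1170.4 ± 97.2 to 565 ± 81.8. DYL1, the induced member, rose from 724 ± 140 to 1049 ± 131 (adjusted p 0.0359). Its call was lost without *pifq* dark replicate 1 (0.0689) or 3 (0.073), or *pifq* dark linc replicate 1 (0.0890) or 2 (0.168).

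Fewer genes rose, and by less. By the rule that took genes with at least 20 normalized CPM in the higher group, UPOX rose most, a small mitochondrial protein used as a marker of mitochondrial dysfunction. It had 5.90, 6.18 and 6.02 normalized CPM in *pifq* dark and 42.0, 40.9 and 44.1 in *pifq* dark linc (log2 fold change 2.81 ± 0.13 SE, adjusted p 2.03e-08). AT2G18193, annotated as a P-loop nucleoside triphosphate hydrolase, rose from 4.89 ± 0.552 to 28.6 ± 3.08. AT2G47780, annotated as a rubber elongation factor protein, rose from 58.0 ± 7.14 to 250.1 ± 34.0. AT1G55210, a dirigent-like protein, AT3G61490, a pectin lyase-like protein, and AT5G55450, of the lipid-transfer superfamily, rose by 1.98, 1.92 and 1.91 on the log2 scale. A larger fitted rise at low level was that of AT1G30170, with 4 counts in the *pifq* dark libraries against 212 in *pifq* dark linc, a ratio of 48.0 with a counting interval of 18.5 to 178. AT1G30170, AT2G18193 and AT5G55450 passed the filter only through the lincomycin libraries, so they had to be higher there to be tested.

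The flavonoid genes included CHS, the chalcone synthase at the entry of flavonoid synthesis. It had 4.78, 4.63 and 5.19 normalized CPM without lincomycin and 29.4, 25.1 and 19.3 with it (log2 fold change 2.34 ± 0.18 SE, adjusted p 1.08e-06). FLS1, flavonol synthase, rose from 2.32 ± 0.175 to 5.88 ± 1.21, and 4CL3, a 4-coumarate:CoA ligase, was SS induced as well (0.80). MYBL2, a repressor of anthocyanin synthesis, fell from 33.1 ± 1.36 to 15.1 ± 3.37. PAL1, at the start of phenylpropanoid synthesis, was at an adjusted p of 0.0733, or 0.000705 with the replicate block, which gave 5 SS-induced flavonoid genes in place of 3 among 8 tested. All 3 SS-induced genes reached the minimum level of the filter only in the lincomycin libraries, so their count is no measure of the list. The promoters of CHS (chr5:4488176-4488475, plus strand) and AT2G47780 (chr2:19569740-19570039, plus strand) are shown in the same manner, also picked after the search.
CHS: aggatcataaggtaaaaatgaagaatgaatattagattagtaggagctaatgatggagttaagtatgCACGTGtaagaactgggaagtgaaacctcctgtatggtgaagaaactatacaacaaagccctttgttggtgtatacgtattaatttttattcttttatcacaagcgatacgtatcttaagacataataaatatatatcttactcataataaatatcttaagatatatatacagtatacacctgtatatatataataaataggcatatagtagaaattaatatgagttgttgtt
AT2G47780: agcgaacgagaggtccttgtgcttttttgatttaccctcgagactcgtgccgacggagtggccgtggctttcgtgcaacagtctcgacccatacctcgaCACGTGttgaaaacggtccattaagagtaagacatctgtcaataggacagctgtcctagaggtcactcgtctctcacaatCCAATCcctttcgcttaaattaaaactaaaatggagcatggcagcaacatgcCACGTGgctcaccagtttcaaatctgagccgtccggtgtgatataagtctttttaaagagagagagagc
Both hold CACGTG, and AT2G47780 holds CCAATC as well, so the same letters occur before genes that fell and genes that rose.

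Markers of mitochondrial dysfunction did not move as a group. Of 10 tested, 3 were SS induced, namely UPOX, the mitochondrial small heat-shock protein HSP23.5 and the transcription factor NAC013, and 2 were SS repressed (1 without *pifq* dark replicate 1 or *pifq* dark linc replicate 2). Of the 3, 2 reached the minimum level of the filter only in the lincomycin libraries. HSP23.5 rose from 2.40 ± 0.258 to 10.8 ± 0.28 normalized CPM. AOX1A, the alternative oxidase most often used as such a marker, had 39.3 and 43.7 normalized CPM on average and no call. UGT74E2, a glucosyltransferase with a near-identical neighbour, was SS repressed (−0.58, adjusted p 0.0178), and this call was lost without *pifq* dark replicate 1 (0.0626), *pifq* dark linc replicate 2 (0.0783) or *pifq* dark linc replicate 3 (0.0616).

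The most abundant SSTF-induced transcripts included genes of the cell surface. LTP2, a lipid-transfer protein of the epidermis, had 2864, 2944 and 2519 normalized CPM without lincomycin and 6526, 6165 and 5363 with it. Its list of lipid transfer and wax genes was split. Of 10 tested, 2 were SS induced (4 with the replicate block) and 2 SS repressed, with a median log2 fold change of −0.005. LTP5 fell from 813 ± 37.5 to 517 ± 17.4 (log2 fold change −0.66). CWLP, a cell wall-plasma membrane linker protein, rose from 948 ± 13.3 to 2188 ± 245, and AT5G44440, a berberine bridge enzyme-like protein, from 741 ± 138 to 1587 ± 117. AT5G66052, AT4G23680 and AT4G22212, annotated as an uncharacterized protein, a polyketide cyclase-like protein and a defensin-like protein, rose by 1.25, 1.08 and 1.32 on the log2 scale. CER4, a fatty acyl-CoA reductase of wax synthesis, rose from 4.39 ± 0.544 to 13.5 ± 1.75. It passed the filter only through the lincomycin libraries, so it had to be higher there to be tested. In the indole glucosinolate path, CYP79B2 rose from 4.83 ± 0.587 to 9.75 ± 1.06, and CYP79B3 (0.68) and CYP83B1 (0.53) were SS induced, while TGG1, a myrosinase that breaks glucosinolates down, was SS repressed (−0.78). CYP79B2 also passed the filter only through the lincomycin libraries.

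**Figure D4:**
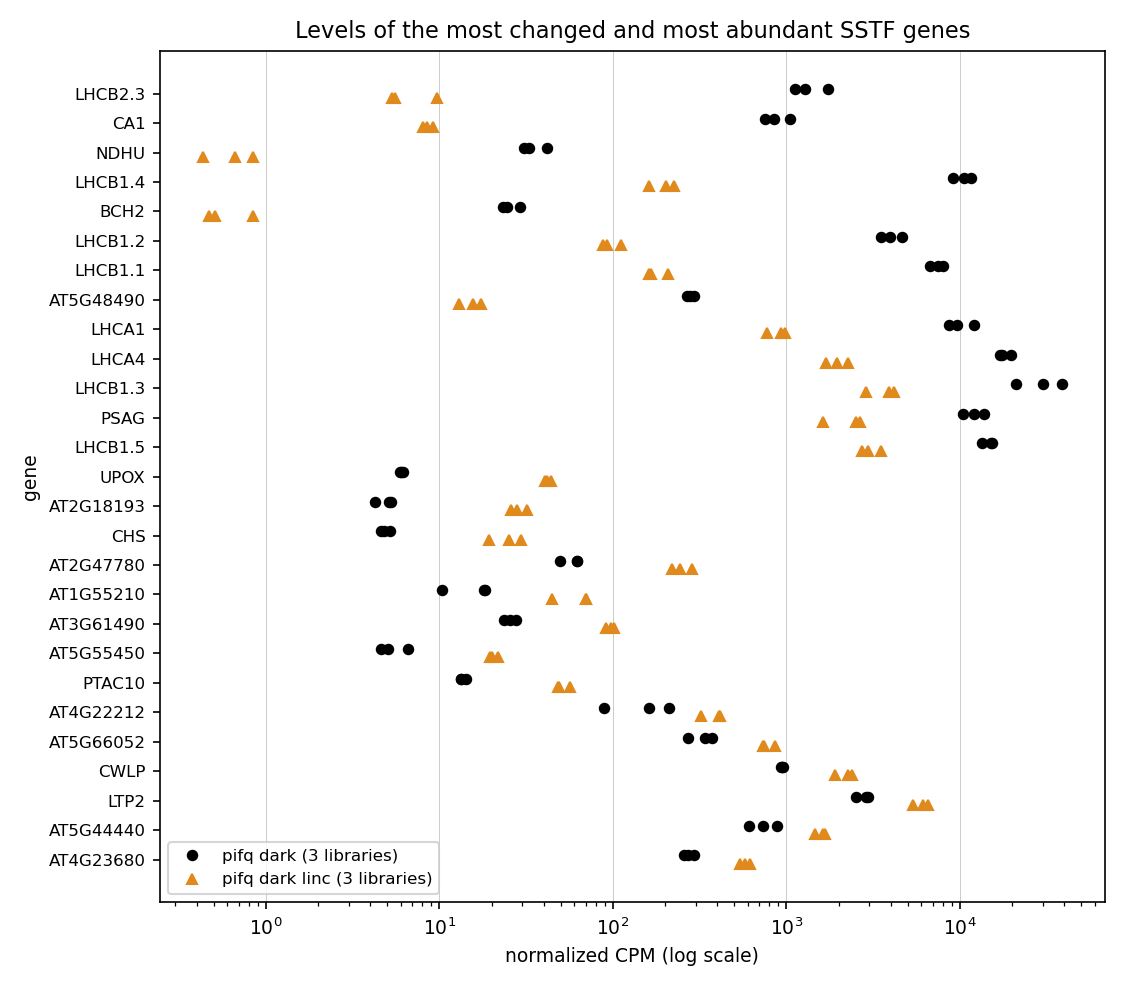
Normalized CPM (log axis) of 27 genes in the 3 *pifq* dark libraries (circles) and the 3 *pifq* dark linc libraries (triangles): those with the largest changes and those with the highest levels among the SSTF genes. The 2 groups do not overlap for any gene plotted, with LHCB2.3 at 1129 to 1738 against 5.35 to 9.69 and UPOX at 5.90 to 6.18 against 40.9 to 44.1.

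Growth and hormone genes mostly stayed without a call. Of 22 expansin, xyloglucan endotransglucosylase and cellulose synthase genes, 1 was SS repressed and 3 SS induced (6 and 9 with the replicate block, 1 and 13 on library totals). EXPA1, an expansin that loosens cell walls, had 149, 125 and 155 normalized CPM without lincomycin and 74.5, 66.1 and 65.1 with it, and EXPA4 went the other way, from 6.90 ± 0.916 to 11.6 ± 0.928. The count of 3 was 1 without *pifq* dark linc replicate 1 and 1 without *pifq* dark linc replicate 3. Of 22 auxin genes, TAA1, an auxin synthesis enzyme, was the SS-repressed one (−0.78) and SAUR23 the SS-induced one (2 and 5 genes with the replicate block), and the call of SAUR23 was lost when any library other than *pifq* dark replicate 1 was left out. Of 11 gibberellin genes, 1 was SS repressed, and none was without *pifq* dark replicate 1 or *pifq* dark linc replicate 1 or 2, while 3 were SS induced (1 without *pifq* dark linc replicate 2). Of these 3, 1 passed the filter only through the lincomycin libraries. Of 10 ethylene and hook genes, 1 was SS repressed (6 with the replicate block), while 3 were without *pifq* dark replicate 3 and none without *pifq* dark replicate 1 or *pifq* dark linc replicate 2. Of 13 aquaporin genes tested, none was called by edgeR's quasi-likelihood test, while 1 was SS repressed and 2 SS induced with the replicate block, and of 9 cell cycle genes none was called without the block and 2 were SS induced with it. Of 5 heat-shock proteins tested, 2 were SS induced, HSP70 (0.78) and BIP2 (0.40), and of 17 genes of seed oil mobilization 2 were SS repressed (4 with the replicate block) and 1 SS induced. The call of BIP2 was lost without *pifq* dark replicate 1 or *pifq* dark linc replicate 1 or 2. The 3′ end of BIP2 resembles that of BIP1, and the 3′ end of SAUR23 resembles those of SAUR22 and SAUR24.

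Markers of cell types and organs were compared as whole lists. Of 14 root markers 7 passed the filter and none was called without the block, while 3 were SS induced with it. Their summed level was 467 to 688 normalized CPM in *pifq* dark and 584 to 801 in *pifq* dark linc, with PLT1, PLT2 and WOX5 among those under the filter. All 4 epidermis markers were tested, none was called without the block and 2 were SS induced with it, and their sum was 1302 to 1481 and 1405 to 1655. The stomatal lineage markers FAMA, TMM and EPFL9 were the 3 of 8 that passed the filter, and all 3 were SS repressed, with a sum over the list of 51.3 to 59.9 without lincomycin and 34.3 to 40.2 with it. None of these 3 was called on library totals, and 1 was called without *pifq* dark replicate 1. Of 14 seed reserve genes, 4 passed the filter, none was called without the block and 2 were SS repressed with it. The part of these cell types in the changes above was not tested.

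The WT libraries were used to test where the response of *pifq* differed from that of WT. In WT, 392 genes were SS repressed (2.91% of 13455 tested) and 426 SS induced (3.17%). The difference itself was tested as an interaction term in a fit of the 12 libraries: 527 of 14040 genes (3.75%) responded more negatively in *pifq* and 172 (1.23%) more positively (264 with the replicate block). On library totals the balance turned, with 270 genes lower and 1544 higher in *pifq*, so the split depends on the scaling. Of the 596 genes SSTF repressed in *pifq*, 506 were tested in WT, 259 were SS repressed there and none was SS induced, and 364 were called as more negative in *pifq* and 3 as less negative. Of the 183 genes SSTF induced in *pifq*, 148 were tested in WT, 76 were SS induced there and none was SS repressed, and 65 were called as more positive in *pifq*. Both sets were chosen by their change in the same *pifq* libraries, which sets the direction of these counts, so they are given as a description.

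The difference between genotypes varied by gene group. In the antenna, 18 of 19 genes were SS repressed in WT too. Of the 19, 10 fell further in *pifq* and 2 fell less, LHCB1.3 and LHCB1.5, whose reads are hard to assign. Among the listed plastid ribosomal proteins none was called in WT (median 0.00), and 20 of 33 fell significantly more in *pifq*. In plastid transcription, 10 of 18 genes were SS induced in WT, the same number as in *pifq*, and none of the 18 was called in the interaction test. PTAC10 had a log2 fold change of 1.91 in *pifq* and 1.64 in WT, and the difference was 0.27 ± 0.21 SE (adjusted p 0.63). CHS rose by 2.34 on the log2 scale in *pifq*, had a log2 fold change of −0.23 and no call in WT, and differed by 2.58 ± 0.21 SE (adjusted p 1.73e-06). GLK1 fell in both genotypes, by 1.35 in *pifq* and 1.71 in WT on the log2 scale, and the difference was 0.37 ± 0.28 SE (adjusted p 0.631).

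**Figure D5:**
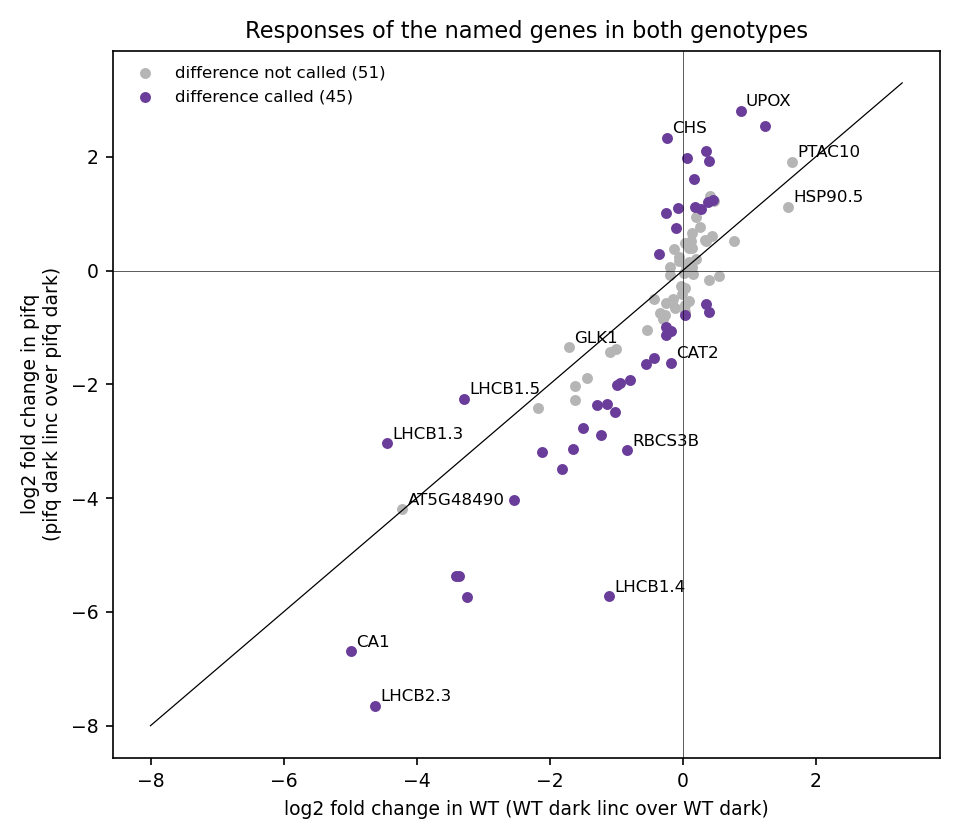
Each point is 1 of 96 named genes tested in both genotypes, with its log2 fold change under lincomycin in WT on the x axis and in *pifq* on the y axis, and the line marks equal responses. The 45 genes whose responses differ in the interaction test include CHS (2.34 against −0.23), whereas AT5G48490 lies on the line (−4.19 against −4.22) and LHCB1.3 and LHCB1.5 fell less in *pifq*. Most of the genes were named for their change in *pifq*, so their side of the line is partly set by that choice.

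AT5G48490, of the lipid-transfer superfamily, was among the 8 largest falls in *pifq*, with 278, 269 and 295 normalized CPM without lincomycin and 13.0, 17.4 and 15.6 with it, and its difference between genotypes was 0.03 ± 0.20 SE. PSAK, a photosystem I subunit, fell by 3.11 in *pifq* and 3.13 in WT on the log2 scale. RBCS3B, by contrast, fell by 3.16 in *pifq* and 0.84 in WT (difference −2.31 ± 0.27 SE, adjusted p 5.73e-05).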

How the data were processed

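The authors deposited raw read counts, not normalized, of 33601 AGI loci in 12 libraries. Per the labels and the methods, polyA-tailed 3′-end fragments of whole-seedling RNA were sequenced in directional libraries. The authors aligned the reads with Bowtie (0.12.7 in the submitters' processing notes) to TAIR10 representative transcripts and used the last 500 bases of the coding strand. Columns were assigned to samples by genotype, treatment and replicate number as the labels give them. Intervals and floors cover counting error only.

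The test took genes that reached 5 CPM in 2 or more of the 6 *pifq* libraries and was run with edgeR 4.0.16 in R 4.3.3 (quasi-likelihood test, TMM factors, Benjamini-Hochberg adjustment, 3 against 3 libraries). Normalized CPM are CPM on the TMM-scaled library size. SEs were taken from the fitted log2 fold change and the F statistic (absolute value over root F). The interaction used all 12 libraries with the same filter. The test was tried on simulated data with known changes. Counts of 2 libraries of a group differed by more than sampling noise, with chi-square values of 6.38 to 27.7 per gene on average. The labels call the replicates biological triplicates.

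Same-numbered libraries of the 2 groups deviated together from their group means (correlations of 0.387 to 0.562 in the 3 pairs, and −0.459 to 0.0748 between other numbers), so blocked values, with that number as the block, are given where they change a call or move a count by over 1.5 times. The labels do not say what a number stands for.

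Genes were named by a rule: the 8 largest changes per direction among SSTF genes with at least 20 normalized CPM and groups that do not overlap, the 6 most abundant SSTF genes per direction, the most changed member per direction and the most abundant member of each of 38 gene lists, and the regulators GLK1, GLK2, GNC, GNL, GUN1, HY5 and the mutated PIF genes. Further list members were named as examples after their values were seen. The gene lists and the members were chosen with earlier results of these data known. Near-identical 3′ ends are those with at least 90% identity over at least 100 of the last 500 bases (blastn 2.17.0+), found for 38 of 625 genes compared. Promoter windows of 300 bases come from RefSeq, assembly TAIR10.1, and only windows that overlap no annotated exon are shown. Alternatives were RLE size factors, library totals, no filter on low counts, DESeq2 1.42.0, the replicate block, a fit to all 12 libraries, the exact test of edgeR, abundant genes left out, another threshold, and each replicate or library left out. The counts over genes regulated by retrograde signals were not run, since the list is held only in part. Figures were drawn with matplotlib 3.10.9.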

Additional observations from a re-analysis of the deposited data

Results flagged for a closer look

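Of 106 named genes in the interaction fit, 48 responded differently to lincomycin in *pifq* and in WT at an adjusted p of at most 0.05 in edgeR's quasi-likelihood test, 31 more negatively and 17 more positively in *pifq*. Over all genes 3.75% were called lower and 1.23% higher in *pifq*, and most of the named genes were picked by their change in *pifq*, which raises their count. Values in parentheses are the response in *pifq* minus that in WT, in log2 units. For the antenna, photosystem, electron transport and NDH genes they were LHCB2.3 (−3.01), LHCB1.4 (−4.60), LHCB1.2 (−2.00), LHCB1.1 (−1.95), LHCA1 (−1.67), LHCA4 (−1.08), PSBO2 (−1.49), ATPD (−1.47), DRT112 (−1.07) and NDHU (−2.49). For carbon fixation, photorespiration and malate dehydrogenase of the peroxisome they were RBCS3B (−2.31), CA1 (−1.70), GGT1 (−1.65), GS2 (−1.46) and PMDH2 (−1.04), and for pigment synthesis BCH2 (−5.23), CAO (−1.27) and DXS (−1.02). Plastid ribosome, protease and one-helix genes differed likewise, with PRPL35 (−1.10), FTSH2 (−1.07) and OHP1 (−1.21). Other genes with a more negative response in *pifq* were BBX16 (−7.02), CRY1 (−0.74), CAT2 (−1.43), NIA2 (−1.13), EXPA1 (−0.88), TAA1 (−0.81), MYBL2 (−0.87), EFE (−1.11) and UGT74E2 (−0.93). PIF1 (−3.22) also differed, with at most 0.518 CPM in *pifq*, so that value rests on few counts, as does that of BBX16 with 6 counts over the 3 treated *pifq* libraries.

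More positive responses in *pifq* than in WT were found for CHS (2.58), UPOX (1.94), AT1G55210 (1.91), AT2G47780 (1.77), AT3G61490 (1.54), CER4 (1.44), AT2G18193 (1.32) and CYP79B2 (1.28). Smaller ones were those of AT5G44440 (1.17), LTP2 (0.93), EXPA4 (0.85), CWLP (0.83), AT4G23680 (0.81), AT5G66052 (0.81) and PDF1 (0.66). The antenna genes LHCB1.3 (1.41) and LHCB1.5 (1.04) fell less in *pifq* than in WT, with log2 fold changes of −3.04 and −2.26 in *pifq* against −4.44 and −3.29 in WT, while LHCB1.4 fell by 5.72 on the log2 scale in *pifq* and had −1.11 without a call in WT (adjusted p 0.06). The 3′ ends of these 3 genes resemble each other, and the part of shared reads in these differences was not tested.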

How the results depend on the processing

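On library totals, 385 genes were SSTF repressed and 563 SSTF induced, 868 SS repressed and 5248 SS induced, the share of repressed genes among SS genes fell from 58.3% to 14.2%, 125 listed genes were SS induced in place of 44, 6 plastid and 1 mitochondrial loci were SS induced, and the interaction gave 270 genes lower and 1544 higher in *pifq*. With the replicate block, 2863 genes were SS repressed and 2633 SS induced, 77 listed genes, 5 plastid loci and 1 mitochondrial locus were SS induced, and 264 genes responded more positively in *pifq*. Without a filter on low counts (23277 genes), 287 genes were SSTF induced, 27 plastid loci were SS repressed and 5 SS induced, and 1 mitochondrial locus was SS repressed.

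Leaving out a replicate number in both groups or 1 library gave 458 to 636 SSTF-repressed and 98 to 218 SSTF-induced genes, 854 to 1858 SS-repressed and 368 to 1542 SS-induced genes, 197 to 249 SS-repressed and 21 to 51 SS-induced listed genes, and 4 to 13 SS-repressed and 1 to 4 SS-induced plastid loci. With an arm of 2 libraries the spread is estimated from fewer samples. Of 1732 alternative values for 103 tested named genes, 83 of which were called, 1599 kept their direction and their side of the threshold, 96 lost a call, 37 gained one and none reversed. RLE size factors, DESeq2, a fit to all 12 libraries, the exact test of edgeR and leaving out 7 abundant genes moved none of the counts of SS and SSTF genes by over 1.5 times. Counts over genes regulated by retrograde signals were not run.

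Calls made at low level are limited by depth, since 3 counts equal 0.194 to 0.261 CPM. With 3 libraries a group, the p-values describe the spread between these cultures.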

Other observations

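Some gene families outside the lists were looked at after their values were seen, and their counts are descriptions. Of 259 tested ribosomal protein genes outside the plastid list, which include the cytosolic ribosome, 97 were SS induced and 6 SS repressed in *pifq* (158 and 7 with the replicate block, 224 and 4 on library totals), and their median was 0.34 on the log2 scale. In WT, 51 of 258 were SS induced, also with a median of 0.34. Of the 97, 1 reached the minimum level of the filter only with lincomycin. Both medians lay on the other side of 0 from that of the 33 listed plastid ribosomal proteins in *pifq* (−0.91). The split is not clean, since it follows product wording. The family outside the list also holds the plastid ribosomal proteins PSRP3/1, which was SS repressed, and PSRP3/2, which had no call. Product wording does not give the compartment of other members. RFC3, of the ribosomal protein S6 family, is such a member. It was SSTF induced, from 23.3 ± 1.55 to 59.2 ± 2.66 normalized CPM, and was SS induced in WT too (1.42).

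Some genes for folding and quality control of proteins in mitochondria were induced. They were picked after their values were seen, and 5 of 12 such induced genes reached the minimum level of the filter only in the lincomycin libraries, so no count of the family is given. The mitochondrial HSP70 mtHsc70-1 rose from 35.3 ± 6.29 to 74.0 ± 13.1 normalized CPM. PHB3, a prohibitin of the inner membrane and 1 of these 5 genes, rose from 5.19 ± 0.601 to 13.0 ± 2.35. LON1, a matrix protease, rose from 5.81 ± 0.332 to 13.0 ± 0.868. In WT, mtHsc70-1 (0.74), PHB3 (0.85) and LON1 (0.69) were SS induced too. AT1G36390 was SS repressed in *pifq* (−0.62). It is annotated as a co-chaperone of the GrpE family, in wording that names no compartment, so it cannot be counted as mitochondrial here. The alternative oxidase AOX1A had a log2 fold change of 0.15 and no call beside them.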
